A study of Mus musculus with 10 samples.

Results

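The mitochondrial respiratory chain and its ATP synthase were compared between colon tumours with and without Bcl9 and Bcl9l. Genes were taken by name, those whose symbol begins with Nduf, with Sdh and a letter from a to d, with Uqcr, with Cox and a digit from 4 to 8, or with Atp5. This gave 94 of the 18193 genes named on the array, each read by its probe set of highest mean signal. There were 44 for complex I, 8 for complex II, 8 for complex III, 17 for complex IV and 17 for complex V. The names also take in assembly factors, which help to build complexes I and II without staying in them. Of the 94 genes, 91 passed the level filter and were tested. Ndufb4, Cox7b2 and Cox8b had a mean below the filter (5.82 log2) in both groups, with differences of −0.06, −0.01 and 0.01 log2.

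Tumours were induced in mice of a mixed 129SvEv/C57BL/6/DBA/2 background aged 6 to 8 weeks by dimethylhydrazine at 44 mg/kg, a carcinogen precursor, followed by 2% dextran sulfate sodium for 7 days, which injures the colon. KO mice are vil-Cre-Bcl9-/-/Bcl9l-/-, in which Cre is driven by the villin promoter, active in intestinal epithelium, so other cells of the dissected tissue may keep both genes. WT mice are labelled wildtype, and whether they carry Cre is not given in the sources used here. There were 5 KO tumours (2 from mouse 02, 2 from mouse 04, 1 from mouse 99) and 5 WT tumours (4 from mouse 72, 1 from mouse 82), each laser-dissected and hybridised to 1 Affymetrix mouse genome array. The values are log2 signals, and only a difference of 1 gene between tumours is read from them, never the level of one gene against another.

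The arrays themselves did not separate the genotypes at the targeted genes. Bcl9 was at 8.49 ± 0.20 in KO tumours and 8.28 ± 0.22 in WT (SD, n = 5 each, range 8.35 to 8.84 against 8.07 to 8.53), and Bcl9l at 8.40 ± 0.22 and 8.27 ± 0.15 (8.19 to 8.64 against 8.04 to 8.39). Whether the deleted stretch holds these probe sets is not stated, so they check nothing. All 12 epithelial markers passed the filter, and their mean was 11.31 to 11.54 in KO and 10.84 to 11.74 in WT tumours. None was called, but 10 of the 12 differences were above 0 with a median of 0.20 log2. Vil1 (villin) differed by 0.69 without overlap (limma, adjusted p = 0.0716). The largest difference in size went the other way, −0.79 for Cldn4, with overlap (adjusted p = 0.147). Of 8 fibroblast markers 0 were called and 7 differences were below 0, with a median of −0.34 log2 and list means of 9.43 to 10.40 in KO and 9.26 to 10.51 in WT tumours. The list mean of 10 lymphocyte markers was higher in each KO tumour than in any WT tumour, at 7.12 to 7.66 against 5.73 to 6.43. Of the 10, 7 were called higher (70%, all genes 4.16%) and 6 did not overlap (60%, all genes 5.33%). Cd3d, Ptprcap and Cd4 were not called and differed by 0.58, 0.17 and 0.05. Of 9 myeloid markers 1 was called higher (11.1%, all genes 4.16%), Cd14 at 1.91 without overlap (limma, adjusted p = 0.00186). The median of the 9 was 0.01 log2. Of 7 endothelial markers 0 were called and 5 differences were below 0, with a median of −0.22 log2. The part of these cell type markers in the differences of the respiratory genes was not tested. Fewer cells of a type and less RNA per cell cannot be told apart in such tissue.

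The respiratory chain passes electrons from NADH (complex I) or succinate (complex II) through ubiquinone to complex III, by cytochrome c to complex IV and on to oxygen. Complexes I, III and IV pump protons across the inner mitochondrial membrane, and complex V, the ATP synthase, uses their return to make ATP. Most subunits are encoded in the nucleus, and in mouse colon the chain supplies epithelial cells that burn short-chain fatty acids. Transcription factors of the NRF1, ETS (GABP) and YY1 families are known to act at the promoters of many of these genes.

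The promoters of the 4 genes called higher in KO tumours are shown so that the letters before the starts of the called genes can be compared. They are the 250 bases before the annotated start, 5′ to 3′ on the gene's strand, from RefSeq on GRCm38.p6. Capitals mark matches on either strand to 1 of 4 letter patterns. They are CCGGAAG (ETS type), AAGATGGCG (YY1 type) and the longer NRF1 and ZNF143 types, which leave some inner bases free and are seen in capitals in Ndufs5 and in Atp5o and Ndufa3. The ZNF143 type was added after these sequences had been read.
Atp5o, chr16:91931631-91931880, minus strand: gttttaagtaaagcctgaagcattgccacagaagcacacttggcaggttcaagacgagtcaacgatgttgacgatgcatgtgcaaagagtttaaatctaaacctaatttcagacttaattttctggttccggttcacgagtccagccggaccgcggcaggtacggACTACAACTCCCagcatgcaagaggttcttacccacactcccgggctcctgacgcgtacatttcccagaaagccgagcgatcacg
Ndufa3, chr7:3617123-3617372, plus strand: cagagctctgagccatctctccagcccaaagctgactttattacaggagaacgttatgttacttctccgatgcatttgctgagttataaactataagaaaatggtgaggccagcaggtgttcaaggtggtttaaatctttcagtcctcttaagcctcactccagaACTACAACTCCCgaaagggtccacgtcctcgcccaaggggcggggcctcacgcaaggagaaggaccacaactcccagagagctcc
Atp5e, chr2:174464102-174464351, minus strand: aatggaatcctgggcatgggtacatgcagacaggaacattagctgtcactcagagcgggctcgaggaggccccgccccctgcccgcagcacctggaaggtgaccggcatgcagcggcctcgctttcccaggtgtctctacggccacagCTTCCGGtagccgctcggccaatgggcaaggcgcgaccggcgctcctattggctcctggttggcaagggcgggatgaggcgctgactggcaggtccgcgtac
Ndufs5, chr4:123718187-123718436, minus strand: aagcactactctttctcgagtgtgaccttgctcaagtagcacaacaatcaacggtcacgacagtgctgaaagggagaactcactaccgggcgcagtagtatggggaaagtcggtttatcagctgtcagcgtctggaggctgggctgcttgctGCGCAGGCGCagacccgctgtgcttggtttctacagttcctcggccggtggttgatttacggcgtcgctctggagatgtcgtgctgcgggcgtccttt
The letters ACTACAACTCCC stand in both Atp5o and Ndufa3, 85 bases before the start in each. Atp5e holds the ETS type and Ndufs5 the NRF1 type, and Atp5o has a further NRF1 type match just past its start, outside the stretch shown.

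Across the windows of 300 bases around the start (250 before, 50 after), 78 of the 94 genes had an entry, with 83 windows. The NRF1 type was in 20 of the 83 (24.1%) and in 4.6% of all 32851 windows. The ETS type was in 22 (26.5%, all windows 8.86%) and the YY1 type in 7 (8.43%, all windows 1.4%). The ZNF143 type was in 7 (8.43%, all windows 1.81%). It was added after the promoters of Atp5o and Ndufa3, which hold it, had been read. Its share is thus partly fixed in advance and is not compared with the others. The patterns do not contain one another. A match describes letters only, and no binding was measured here. The 6 genes with the ZNF143 type were Atp5o, Ndufa3, Uqcr10, Atp5d, Ndufv1 and Cox7c, and since that pattern was taken from the called genes, nothing is read from how many of them were called.

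KO tumours had slightly higher signals over much of the chain, but few genes passed the test. Of the 91 tested, 4 rose in KO tumours (4.40%) and 0 fell, by limma with the mouse as a random block and Benjamini-Hochberg adjustment over 12250 genes. Among all genes tested 4.16% rose and 2.93% fell, so the share of called genes is near that background. At an unadjusted p under 0.05, 20 of the 91 were higher (22.0%, all genes 12.8%) and 2 lower (all genes 9.58%). The difference was above 0 in 74 of 91 (81.3%, all genes 53.8%), and its median was 0.13 log2, against 0.03 over all genes and 0.20 over the 12 epithelial markers. The median standard error of a single gene was 0.12, about the size of that difference. All 5 KO tumours lay above all 5 WT tumours in 8 genes (8.79%, all genes 5.33%) and below them in 0 (all genes 3.79%).

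**Figure D1:**
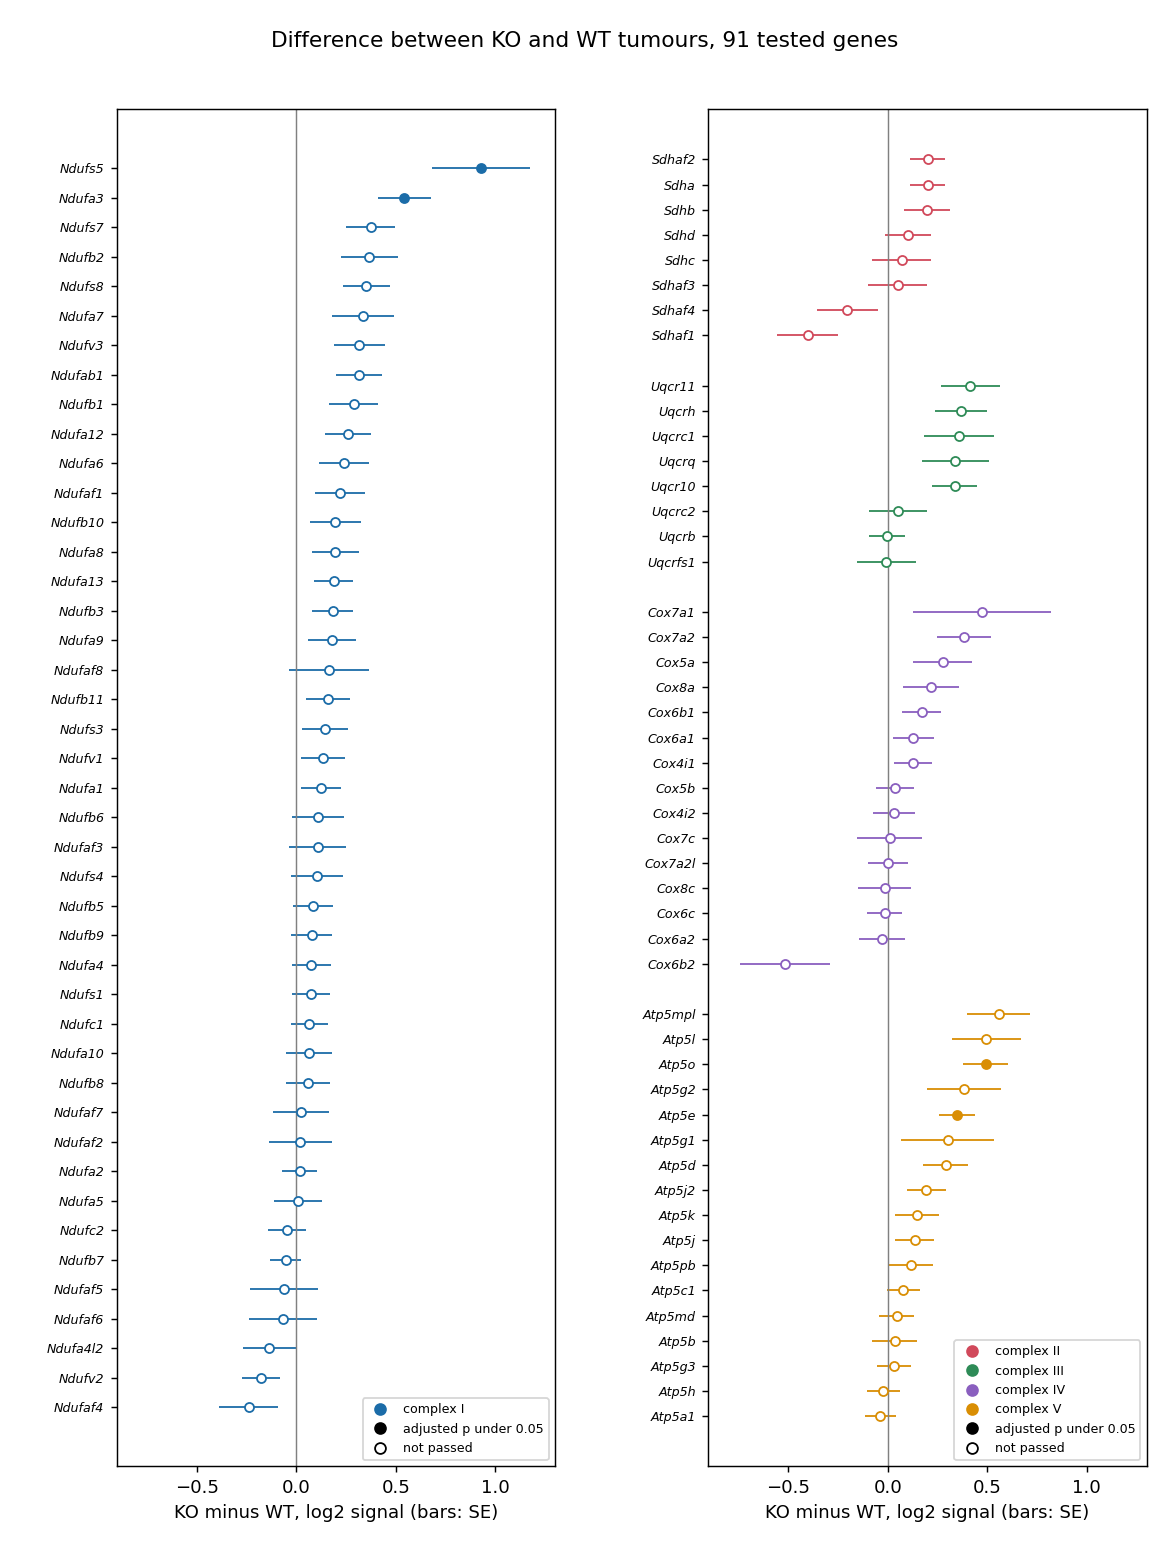
Fitted KO minus WT difference in log2 signal (points) with its standard error (bars) for the 91 tested genes, by complex; filled points have an adjusted p under 0.05. Most points lie to the right of 0 by less than 0.5 log2, and the filled ones are Ndufs5, Ndufa3, Atp5o and Atp5e.

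In complex V, 2 of 17 tested genes rose (11.8%, all genes 4.16%). The difference was above 0 in 15 of 17 (88.2%, all genes 53.8%), with a median of 0.15 log2. Atp5o encodes the oligomycin sensitivity-conferring protein, which ties the catalytic F1 head to the stator stalk. Its signal was 10.95, 11.08, 11.23, 11.28 and 11.30 log2 in KO tumours 9, 7, 2, 6 and 11, and 10.49, 10.57, 10.71, 10.72 and 10.88 in WT tumours 13, 1, 12, 8 and 3. The groups did not overlap, and the difference was 0.49 ± 0.11 log2 (SE), a 1.41-fold rise (limma, adjusted p = 0.0281). A second probe set of Atp5o differed by 0.46 log2 between the group means.

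Atp5e encodes the epsilon subunit of the F1 part. Its signal was 11.93, 12.09, 12.10, 12.12 and 12.15 log2 in KO tumours 9, 2, 7, 11 and 6, and 11.60, 11.69, 11.73, 11.79 and 11.86 in WT tumours 8, 13, 3, 1 and 12. These groups did not overlap either, and the difference was 0.35 ± 0.09 log2 (SE), a 1.27-fold rise (limma, adjusted p = 0.0464). It rests on 1 probe set whose name ends in s_at, a kind that can match more than one transcript.

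Atp5mpl, a small membrane-part subunit, had the largest difference of complex V without passing, 0.56 ± 0.16 log2 (SE, limma, adjusted p = 0.0618). Its signal was 10.65, 10.83, 11.03, 11.04 and 11.31 log2 in KO tumours 7, 9, 6, 2 and 11, and 10.02, 10.45, 10.46, 10.47 and 10.65 in WT tumours 13, 8, 12, 3 and 1, with the lowest KO tumour just above the highest WT tumour. It passed without the block (adjusted p = 0.0414), with array weights (0.0307) and without KO tumour 7, the 1 tumour of mouse 99 (0.0347). Among the other F1 subunits, Atp5d (delta) differed by 0.29 log2, Atp5c1 (gamma) by 0.08, Atp5b (beta, which holds the catalytic sites) by 0.03 and Atp5a1 (alpha) by −0.04. The c-ring genes Atp5g1, Atp5g2 and Atp5g3, whose mature protein is the same, differed by 0.30, 0.38 and 0.03. Of the other stalk and membrane parts, Atp5l (g) differed by 0.50, Atp5j2 (f) by 0.19, Atp5k (e) by 0.15, Atp5j (F6) by 0.14, Atp5pb (b) by 0.12, Atp5md by 0.05 and Atp5h (d) by −0.02. None of these passed, and Atp5l had an adjusted p of 0.123 (limma). Further probe sets of Atp5k differed by 0.35 and 0.39 between group means.

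**Figure D2:**
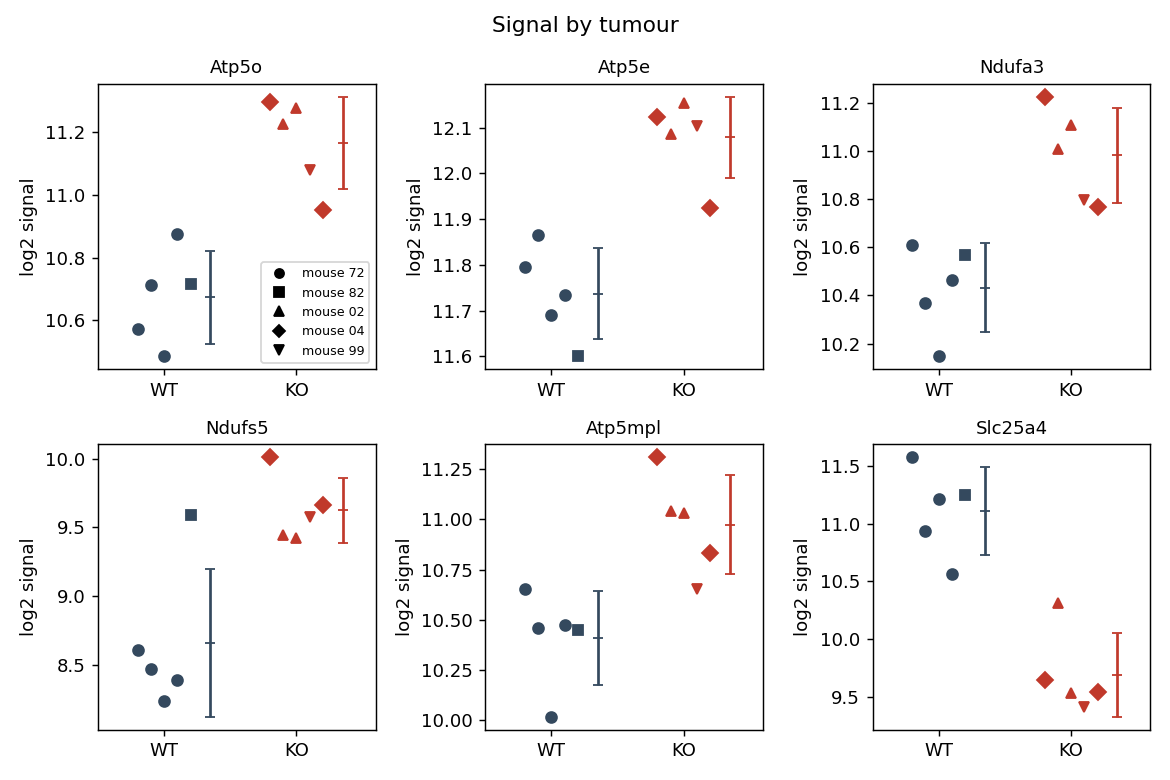
Log2 signal of Atp5o, Atp5e, Ndufa3, Ndufs5, Atp5mpl and the ADP/ATP carrier gene Slc25a4 in each tumour (symbol by mouse, colour by genotype), with group mean and SD beside the points. KO and WT points do not overlap except in Ndufs5, where WT tumour 8 of mouse 82, at 9.59, lies among the KO tumours.

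Complex I, the NADH dehydrogenase, had 2 of 43 tested genes called (4.65%), near the 4.16% called higher among all genes. Both encode accessory subunits, which surround the catalytic core. Ndufa3 was at 10.77, 10.80, 11.01, 11.11 and 11.22 log2 in KO tumours 9, 7, 2, 6 and 11, and at 10.15, 10.37, 10.47, 10.57 and 10.61 in WT tumours 13, 12, 3, 8 and 1. The groups were apart, and the difference was 0.54 ± 0.13 log2 (SE), a 1.46-fold rise (limma, adjusted p = 0.0361). A second probe set differed by 0.59 between group means, while another, of low signal (mean 6.01 log2), differed by −0.02. The mean over its 3 probe sets gave 0.37 log2 and did not pass (adjusted p = 0.124).

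Ndufs5 had the largest difference of the 91 genes, with 1 WT tumour apart from the other 4. Its signal was 9.43, 9.44, 9.58, 9.67 and 10.01 log2 in KO tumours 6, 2, 7, 9 and 11, and 8.24, 8.39, 8.48 and 8.61 in WT tumours 13, 3, 12 and 1, all of mouse 72. WT tumour 8, of mouse 82, was at 9.59, within the KO range, so the low values are those of 1 mouse. The fitted difference was 0.93 ± 0.25 log2 (SE), a 1.90-fold rise (limma, adjusted p = 0.0471). Without WT tumour 8 it was 1.19 (adjusted p = 0.00191), without mouse 72, which leaves WT tumour 8 as the lone WT tumour, it was 0.03 (adjusted p = 0.979), and with 1 mean per mouse it was 0.60 (adjusted p = 0.431). A further probe set is annotated to both Ndufs5 and the pseudogene Ndufs5-ps and was left out.

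Of the 6 core subunits of complex I tested, among which are those that carry the flavin and iron-sulfur clusters, 0 passed. Ndufs7 and Ndufs8 differed by 0.37 and 0.35 log2 (adjusted p = 0.101 and 0.110), Ndufs3 by 0.15, Ndufv1 by 0.13, Ndufs1 by 0.07 and Ndufv2 by −0.18. Ndufs7 passed when KO tumour 9 was left out (0.46, adjusted p = 0.0320), as did Ndufs8, and Ndufs7 also when both tumours of mouse 04 were (0.50, adjusted p = 0.0465). The 6 probe sets of Ndufs8 all had the same sign, with differences of group means from 0.11 to 0.36. The 3 probe sets of Ndufv2 were all below 0, from −0.18 to −0.16. Of 27 accessory subunits, 25 were above 0 (92.6%, all genes 53.8%), with a median of 0.18 log2. Those next in size after Ndufs5 and Ndufa3 were Ndufb2 (0.37), Ndufa7 (0.34), Ndufab1 (0.32), which encodes the mitochondrial acyl carrier protein, and Ndufv3 (0.32). Ndufv3 was the other complex I gene without overlap, at 11.53 to 11.73 in KO and 10.95 to 11.50 in WT tumours (adjusted p = 0.177, limma). The 8 complex I assembly factors ranged from −0.24 (Ndufaf4) to 0.22 (Ndufaf1), with a median of 0.02 and 0 called.

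Ndufa4, first assigned to complex I and now placed in complex IV, differed by 0.08 log2, and its relative Ndufa4l2, a gene induced under low oxygen, by −0.14, at a signal close to the level filter (5.92 ± 0.23 in KO and 6.05 ± 0.14 in WT, SD, n = 5 each).

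Complex III, which hands electrons from ubiquinol to cytochrome c, had the highest median of the 5 complexes, 0.34 log2. Of its 8 genes 0 were called and 3 were higher at an unadjusted p under 0.05 (37.5%, all genes 12.8%). Uqcr10, a small subunit, was at 10.15 to 10.49 log2 in KO and 9.68 to 10.11 in WT tumours, without overlap, and differed by 0.34 ± 0.11 (SE, limma, adjusted p = 0.111). Uqcrh, the hinge protein that helps cytochrome c to bind, differed by 0.37 and Uqcr11 by 0.41 (adjusted p = 0.121 and 0.128). The core protein gene Uqcrc1 differed by 0.36 and Uqcrq by 0.34. The remaining genes stayed near 0, with 0.05 for the core protein gene Uqcrc2, −0.0064 for the Rieske iron-sulfur protein gene Uqcrfs1 and −0.0036 for Uqcrb. Thus, by the chosen probe sets, 5 genes lay between 0.34 and 0.41 and the other 3 between −0.0064 and 0.05. This split depends on the probe set. A second probe set of Uqcrb differed by 0.26 between group means and one of Uqcrh by 0.16. Further probe sets of Uqcr10 differed by 0.46 and 0.59, and one of Uqcrc2 by 0.03.

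Complex II, succinate dehydrogenase, also acts in the citric acid cycle. Its 4 subunits all had differences above 0 and 0 passed. The flavoprotein Sdha was at 12.37 to 12.54 log2 in KO and 12.09 to 12.34 in WT tumours, without overlap, and differed by 0.20 ± 0.09 (SE, limma, adjusted p = 0.214). The iron-sulfur subunit Sdhb differed by 0.20, and the membrane anchors Sdhd and Sdhc by 0.10 and 0.07. A second probe set of each anchor differed by 0.31 between group means, and one of Sdha by 0.18. Of the assembly factors, Sdhaf2, which attaches the flavin to Sdha, differed by 0.20 with no overlap (9.10 to 9.34 against 8.91 to 9.09, adjusted p = 0.210). Sdhaf1, which serves Sdhb, differed by −0.40 ± 0.15 (adjusted p = 0.144), the opposite sign to its client. Sdhaf4 differed by −0.20 and Sdhaf3 by 0.05.

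Complex IV, cytochrome c oxidase, reduces oxygen to water, and several of its subunits exist as pairs of isoforms used in different tissues. Of 15 genes tested 0 passed, and the median of 0.04 log2 was close to that of all genes. That median takes in genes of low signal, such as Cox4i2, Cox8c, Cox7c and Cox6a2, whose differences ran from −0.03 to 0.03. It is therefore not a value for the well detected subunits alone. Cox7a2, the widely expressed form, differed by 0.38 ± 0.14 (SE, limma, adjusted p = 0.122), the heart and muscle form Cox7a1 by 0.47 ± 0.35 and the related Cox7a2l, a supercomplex factor, by 0.00 ± 0.10. Cox7a1 spread widely within both groups, from 7.04 to 8.43 in KO and from 6.47 to 7.99 in WT tumours, and its difference was −0.13 among tumours numbered 191 to 229. Cox6b2, a form known from testis, had the lowest difference of the 91 genes, −0.52 ± 0.23 (adjusted p = 0.208), whereas its common form Cox6b1 differed by 0.17. Cox6b2 was at 6.35, 6.53, 6.65, 7.15 and 7.45 log2 in KO tumours 9, 7, 6, 11 and 2, and at 7.12 to 7.68 in WT tumours, so that KO tumours 2 and 11 overlapped the WT tumours.

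The other pairs differed less. Cox4i1, the main form of the subunit that regulates the enzyme, differed by 0.13 and Cox4i2, the form known from lung and low oxygen, by 0.03. Cox6a1 differed by 0.13 and its heart and muscle form Cox6a2 by −0.03, Cox8a by 0.22 and Cox8c by −0.02. Cox4i2 (5.99 in KO and 5.96 in WT) and Cox8c (6.10 and 6.11) lay close to the level filter. Cox5a differed by 0.28, Cox5b by 0.04, Cox6c by −0.02 and Cox7c by 0.01, the last read by a probe set of low signal (6.57 and 6.54).

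The 4 calls were lost under many of the other fits. With 1 mean per mouse 0 of the 91 genes passed (adjusted p of the 4 genes 0.131 to 0.431), and 0 passed when the fit held a term for the range of the unique sample number, or one for the 3′ minus 5′ signal of the Actb and Gapdh control probe sets. The number ranges are 191 to 229 (1 KO and 4 WT tumours) and 254 to 258 (4 KO and 1 WT). Within either range alone 0 passed, with 1 lone tumour in a group, and the differences of Atp5o were 0.38 and 0.62 log2, of Atp5e 0.38 and 0.28, of Ndufa3 0.42 and 0.42 and of Ndufs5 0.94 and 1.03. The count was 0 without KO tumour 6, KO tumour 11, WT tumour 1 or WT tumour 13, 0 without mouse 02 or mouse 72, 1 without KO tumour 2 or WT tumour 3 (Atp5o in each) and 2 without WT tumour 12 or mouse 04. The 3′ minus 5′ signal itself was 0.71 to 1.17 log2 in KO and 0.78 to 1.14 in WT tumours. The fitted difference of each of the 4 genes was above 0 in every one of these fits.

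**Figure D3:**
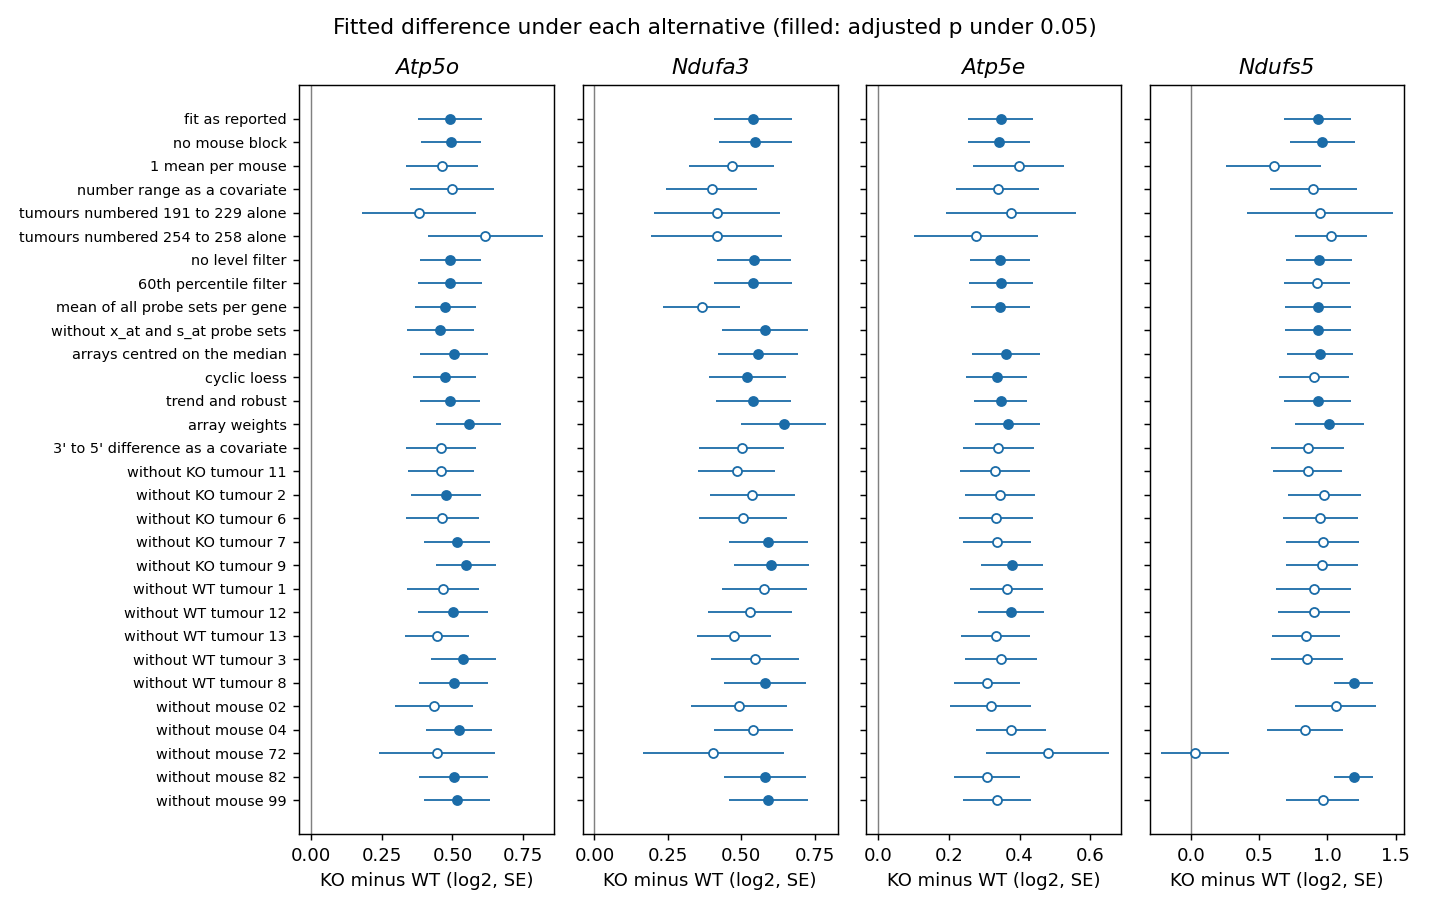
Fitted KO minus WT difference (log2, bars SE) of Atp5o, Ndufa3, Atp5e and Ndufs5 under the reported fit and each alternative; filled points have an adjusted p under 0.05. Atp5o passed in 18 of 29 alternatives, Ndufa3 in 13 of 29, Atp5e in 10 of 28 and Ndufs5 in 9 of 29, where its value fell to 0.03 log2 without mouse 72.

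The tumours of a group differed among themselves by as much as the groups did. Each gene's values were centred on its mean over the 10 tumours and averaged over the 91 tested genes for each tumour. The KO tumours 11, 2, 6, 7 and 9 stood at 0.18, 0.10, 0.08, 0.05 and −0.04 log2, and the WT tumours 3, 12, 8, 1 and 13 at 0.05, −0.03, −0.07, −0.07 and −0.25. KO tumour 9 and WT tumour 3 thus crossed over, and WT tumour 13 stood lowest. WT tumour 13 had the lowest of the 10 values in 50 of the 91 genes (54.9%), against 8.34% of all genes tested, and KO tumour 11 had the highest in 31 (34.1%), against 8.02%. Without WT tumour 13 the median difference was 0.09 log2 with 67 of 91 above 0, and without KO tumour 11 it was 0.11 with 71 of 91.

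**Figure D4:**
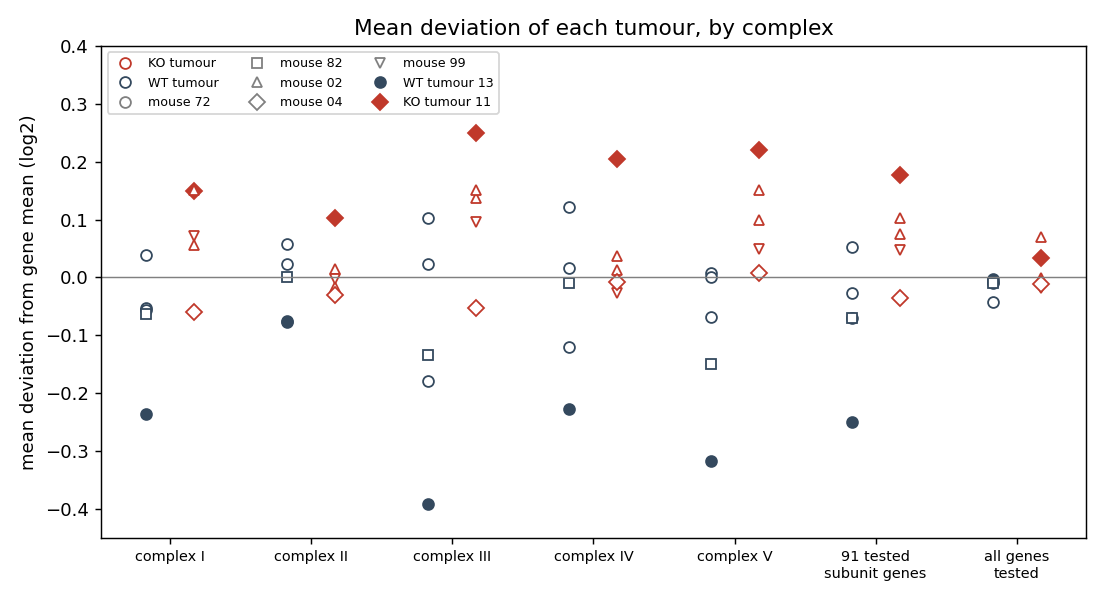
Mean deviation of each tumour from the gene means (log2), averaged over the tested genes of each complex, over the 91 tested genes and over all genes tested; symbols mark the mouse and filled points are WT tumour 13 and KO tumour 11. WT tumour 13 lies at −0.39 in complex III and at −0.08 in complex II, and KO tumour 11 at 0.25 and 0.10.

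WT tumour 13 was the lowest of the 10 in each complex, at −0.24 in complex I. KO tumour 11 was the highest of the 10 in complexes II, III, IV and V. In complex III, WT tumour 13 was at −0.39 and the other WT tumours at −0.18 to 0.10, while KO tumours ran from −0.05 to 0.25. In complex V WT tumour 13 was at −0.32 and KO tumour 11 at 0.22, and in complex IV at −0.23 and 0.20. In complex I KO tumours 11 and 2 were level at 0.15. In complex II the tumours spread least, from −0.08 to 0.10. WT tumour 13 also had the highest fibroblast and myeloid list means of the 10 tumours (10.51 and 8.98), the lowest lymphocyte list mean (5.73), an epithelial list mean of 11.07 and a 3′ minus 5′ signal of 1.14. WT tumour 1 had a lower epithelial list mean (10.84) but stood at −0.07 over the 91 genes. The part of these measures in the values of WT tumour 13 was not tested. Within groups the SD was smaller in KO than in WT tumours for 66 of the 91 genes (72.5%, all genes 56.2%), with medians of 0.13 and 0.17 log2 (all genes 0.22 and 0.23).

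Probe sets of the same gene mostly went the same way. Of 47 genes with several probe sets past the filter, 37 had 1 sign throughout, and 64 of 75 further probe sets had the sign of the chosen one. When each probe set was fitted on its own, 3 of the 166 past the filter for these genes passed, 1 of Atp5o and 2 of Ndufa3. Among all 22759 probe sets tested, 3.18% were called higher. The probe sets of Atp5e and Ndufs5 did not pass in that fit (limma, adjusted p = 0.0587 and 0.0531). Both signs with an unadjusted p under 0.05 occurred in 2 genes, Ndufa3 (given above) and Atp5j2, whose 3 probe sets differed by 0.19, 0.35 and −0.02 log2 between group means. Probe sets of the same sign could still differ in size, in either direction. The chosen ones of Ndufc1 and Ndufb5 differed by 0.06 and 0.08 and further ones by 0.45 and 0.34. The chosen one of Cox5a differed by 0.27 and its further ones by 0.10 and 0.11.

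**Figure D5:**
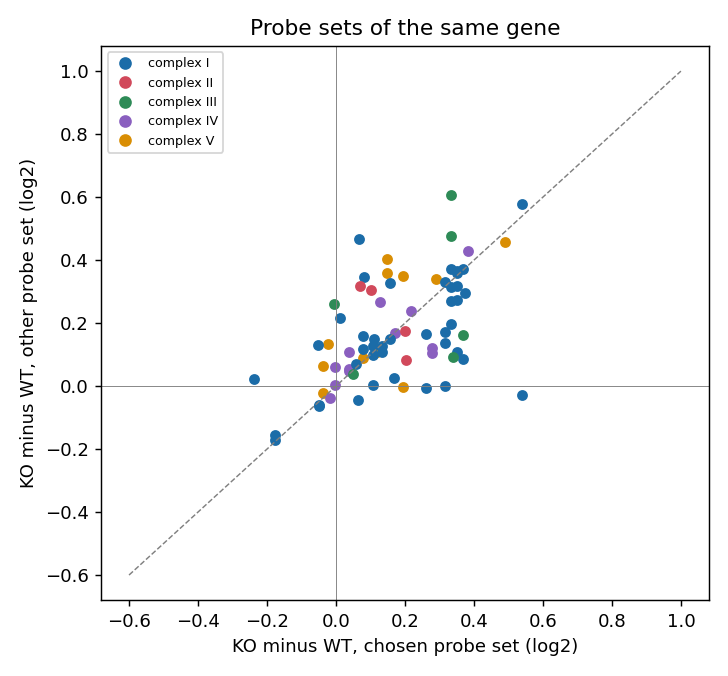
KO minus WT difference (log2) of the chosen probe set of a gene (horizontal) and of each further probe set past the filter (vertical), coloured by complex, with the line of equality dashed. Of the 75 points, 64 lie in a quadrant where both have the same sign.

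Other genes of mitochondrial energy metabolism were compared by lists. Of 111 genes tested, 2 rose and 1 fell (percent of all genes 4.16 and 2.93). The difference was above 0 in 88 (79.3%, all genes 53.8%) and its median was 0.14 log2. The gene that fell was Slc25a4, which encodes the ADP/ATP carrier form of heart and muscle that exchanges the ATP made by complex V for ADP. Its signal was 9.41, 9.53, 9.54, 9.65 and 10.32 log2 in KO tumours 7, 6, 9, 11 and 2, and 10.56, 10.94, 11.22, 11.25 and 11.58 in WT tumours 3, 12, 13, 8 and 1. The groups did not overlap, and the difference was −1.43 ± 0.23 log2 (SE), a 2.70-fold lower signal (limma, adjusted p = 0.00473). With 1 mean per mouse it was −1.52 (adjusted p = 0.0212), and it did not pass without mouse 72 (−1.57, adjusted p = 0.0930) or among tumours numbered 191 to 229 (−1.57, adjusted p = 0.137). Smooth muscle markers, 8 tested, had list means of 7.64 to 8.49 in KO and 7.52 to 8.48 in WT tumours, with 0 called. Of their differences 5 were below 0 and 3 above, the lowest being −0.76 for Mylk (limma, adjusted p = 0.0859). The part of muscle cells in the difference of Slc25a4 was not tested. Slc25a5, the form of most dividing tissues, differed by 0.09 (adjusted p = 0.677).

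The genes that rose were Suclg1, a subunit of succinyl-CoA synthetase in the citric acid cycle, and Mfn2, which fuses mitochondrial outer membranes. Suclg1 was at 10.30 to 10.57 log2 in KO and 9.73 to 10.18 in WT tumours and differed by 0.55 ± 0.12 (SE, limma, adjusted p = 0.0225). Mfn2 was at 8.98 to 9.36 and 8.05 to 8.84 and differed by 0.61 ± 0.15 (adjusted p = 0.0393). Neither passed with 1 mean per mouse (0.108 and 0.0826) or with the number range as a covariate (0.0697 and 0.147). Suclg1 was also lost without KO tumour 6 (0.0715), WT tumour 1 (0.0586), mouse 02 (0.112), mouse 04 (0.0650) or mouse 72 (0.138). Mfn2 passed without KO tumour 7 (0.0399), WT tumour 12 (0.0324) or WT tumour 3 (0.0282) and not without any other tumour (0.0507 to 0.0962).

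Among all genes tested 53.8% of differences were above 0, and 12.8% of genes were higher at an unadjusted p under 0.05. For complex III, cytochrome c and complex IV factors (24 tested, median 0.21 log2) these counts were 22 (91.7%) and 5 (20.8%). For other assembly and membrane factors (13 tested, median 0.19) they were 11 (84.6%) and 3 (23.1%). For coenzyme Q synthesis (12 tested, median 0.20) they were 10 (83.3%) and 3 (25%). No member of these lists passed. Cyc1, the cytochrome c1 of complex III whose symbol falls outside the naming rule, differed by 0.21 (adjusted p = 0.421, limma) and Cycs, cytochrome c, by 0.06. Bcs1l, which inserts the Rieske protein, differed by 0.48 (adjusted p = 0.0527). ND5, the 1 mitochondrially encoded subunit tested, differed by 0.09 (adjusted p = 0.698). Of 19 regulators of respiratory genes 0 passed and 2 were higher at an unadjusted p under 0.05 (10.5%, all genes 12.8%). The coactivator genes Ppargc1a and Ppargc1b differed by −0.45 and 0.77, Nrf1 by 0.06, the GABP subunit gene Gabpa by 0.08, Esrra by −0.14 and Tfam, which packages mitochondrial DNA, by 0.28. The citric acid cycle list had 13 tested, 10 above 0 and a median of 0.19, and citrate synthase, Cs, differed by 0.19. Membrane, import and chaperone genes had 21 tested, 14 above 0 and a median of 0.03, and carriers 8 tested, 5 above 0 and a median of 0.06.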

How the data were processed

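Each of 10 dissected colon tumours gave 1 expression array. The deposited values are log2 signals of 45101 probe sets per array, made by the authors with RMA per the submitters' processing notes (version and genome build not given in the sources used here). RMA equalises signal distributions between arrays (medians 6.43 to 6.50), so a change shared by most genes would not show. Per the labels' protocols 30 ng of RNA was amplified, and a remark there on pooling within a mouse stands beside samples listed as single tumours. Arrays were taken as listed. Precision is limited by how many arrays and mice there are.

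Gene symbols came from the platform annotation, updated by Entrez identifier to GRCm38.p6 names. Of the probe sets 34945 had 1 symbol, 932 several and 9160 none, and 64 were controls. For each of 18193 genes the probe set of highest mean was used. The 12250 genes whose mean reached the 40th percentile (5.82 log2) were tested with limma 3.58.1 (R 4.3.3, statmod 1.5.0), taking mouse as random block (consensus correlation 0.0586) and Benjamini-Hochberg adjustment at 0.05. Differences from this fit weight tumours by mouse and can differ slightly from the group means. The fit was also run on simulated data. These were drawn from the model of the fit, with changes larger than those of the called respiratory chain and ATP synthase genes. That run therefore does not check their calls. Genes named are those called, the 3 of smallest p in each complex, the isoform groups, the Sdh genes, genes whose probe sets disagree, and called genes of the lists, and the others are given as values. The genes, lists and alternatives were chosen with earlier results of these data known. Alternatives were no block, mouse means, number ranges, 3′ to 5′ difference, level filters, probe set choice, normalization, eBayes settings, array weights, and each tumour or mouse left out.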

Additional observations from a re-analysis of the deposited data

Results flagged for a closer look

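In 92 groups of 5 values, 6 held a tumour that stood far from the other 4 by Dixon's test, where chance gives about 1 in 20 (4.6 groups). Ndufs5 was at 9.59 log2 in WT tumour 8, against 8.24 to 8.61 in the other WT tumours. WT tumour 13 stood low for Uqcr10, at 9.68 (others 9.99 to 10.11), and for Cox4i1, at 11.99 (others 12.23 to 12.31). Sdhb was at 9.96 in KO tumour 9 (other KO tumours 10.11 to 10.15). Slc25a4 was at 10.32 in KO tumour 2 (others 9.41 to 9.65). The mean deviation of complex IV was 0.20 in KO tumour 11 (others −0.03 to 0.04).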

How the results depend on the processing

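The median difference over the tested genes stayed above 0 in all 29 alternatives (0.09 to 0.18 log2), with 67 to 79 genes above 0, and the count called lower was 0 in each. The count called higher (4) was 0 with 1 mean per mouse, with the number range as a covariate, in each number range alone, with the 3′ to 5′ covariate and without mouse 02 or mouse 72, was 2 without mouse 04, and ran from 0 to 5 when single tumours were left out. In all, 11 alternatives gave 0 calls and 18 gave at least 1. The cause of these losses was not tested, and a fit that leaves tumours out also has fewer samples. Leaving out mouse 72 or using either number range leaves 1 lone tumour in a group, which is assumed to vary like the others. No paired analysis was possible because no KO and WT tumour share a tumour number or a mouse. Among genes not called, some signs turned. Atp5g3 (0.033) was at −0.018 among tumours numbered 191 to 229, −0.0033 without mouse 04. Cox4i2 (0.031) was at −0.036 without mouse 04, −0.021 to 0.070 without single tumours. Cox6a2 (−0.030) was at 0.091 among tumours numbered 254 to 258, 0.047 with array weights, −0.098 to 0.033 without single tumours. Cox7a1 (0.47) was at −0.13 among tumours numbered 191 to 229. Cox7a2l (0.00020) was at −0.090 with 1 mean per mouse, −0.084 with the number range as a covariate, −0.16 among tumours numbered 191 to 229, −0.0012 with the 60th percentile filter, −0.0068 with cyclic loess, −0.012 without mouse 02, −0.035 without mouse 04, −0.18 without mouse 72, −0.034 to 0.053 without single tumours. Cox8c (−0.015) was at 0.034 with the number range as a covariate, 0.19 among tumours numbered 254 to 258, 0.0043 with cyclic loess, 0.067 with array weights, 0.069 without mouse 02, 0.027 without mouse 82, 0.0016 without mouse 99, −0.063 to 0.056 without single tumours. Ndufa4 (0.075) was at −0.064 among tumours numbered 254 to 258. Sdhaf3 (0.050) was at −0.24 among tumours numbered 254 to 258, −0.10 with the mean of all probe sets, −0.016 without mouse 82, −0.014 without mouse 99, −0.016 to 0.12 without single tumours. Sdhc (0.070) was at −0.025 with the 3′ to 5′ covariate, −0.0013 to 0.17 without single tumours. The cause of these turns was not tested. The 10 arrays from 5 mice limit the precision, and tumours of a mouse are not separate animals.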
